A study of Mus musculus with 9 samples.

Results

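Small nucleolar RNAs of the C/D box class were followed through a search for RNAs bound by HuR in mouse liver. The class was taken as every gene name of the deposited exon table that starts with Snord, or with Rnu3 for the copies of U3, which gave 99 of 33732 gene names. RNA immunoprecipitation followed by sequencing (RIP-seq) had been done on whole healthy liver of wild-type C57BL/6 mice aged 8 weeks. The HuR RIP group (3 libraries) was pulled down with an antibody against HuR, the IgG RIP group (3 libraries) with a control IgG, and the Input group (3 libraries) was the RNA going into the pull-down. All groups shared strain, tissue and age, no animal was described as treated or mutant, and each pull-down used the native lysate of 1 liver. The table gives the Input libraries only as the authors' mean, so Input values carry no error here. Values are RPKM, reads scaled by gene length and by the read total of the library. Whether reads rise in step with length in genes as short as these was not tested, so levels of different genes compare only roughly. Values of a gene are listed in the order of libraries 1, 2 and 3 within each antibody.

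C/D box small nucleolar RNAs are short, stable, non-coding RNAs that reside in the nucleolus. The conserved motifs box C near the 5′ end and box D near the 3′ end are bound by the core proteins Snu13, Nop56, Nop58 and fibrillarin (Fbl), and most members guide fibrillarin to methylate a ribose of ribosomal RNA or of the U6 spliceosomal RNA by base pairing. A few, among them U3, U8, U13, U14 and U22, are instead needed to cut or otherwise mature the ribosomal RNA precursor, and most are released from introns of host genes. HuR, the product of Elavl1, recognises stretches rich in U or in A and U, and is known mainly for stabilising messenger RNAs. IgG pull-downs measure what is recovered without a specific antibody.

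The 99 genes were 64 to 238 bases long, with a median of 85, and lay on 17 chromosomes. All 99 had the table's coordinates in the GENCODE M21 annotation (GRCm38, the assembly also called mm10), which types 98 of them as small nucleolar RNA and Snord43 as a microRNA gene. Protein-coding genes held 60 of them, 22 in 14 ribosomal protein genes, and non-coding genes held 35. Rnu3a, Snord104, Snord118 and Snord13 lay in no host gene that this annotation lists on the same strand. The names covered 5 U3 copies and 14 copies of Snord116. For 40 members another listed exon overlapped the same bases, while 59 overlapped none. Reads on shared bases are split between the lines. The levels of those 40 can therefore be too low, or be raised by reads of the other gene. Among the tested members named below for their values, Snord1a, Snord1b, Snord14a, Snord14c, Snord14d, Snord14e, Snord15b, Snord16a, Snord22, Snord33, Snord47, Snord52, Snord64, Snord67, Snord68, Snord69, Snord78, Snord80 and Snord96a had such an overlap. Snord35b, Snord42a and Snord4a overlapped an exon of the opposite strand, and reads of both strands cannot be told apart there because the strand setting of the counting is unknown here.

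The sequences of 10 members that the results turn on, from the GENCODE M21 transcripts and written as DNA from 5′ to 3′, show what the class shares and how its copies differ. Capitals mark the box C letters TGATGA and the last CTGA, the box D. Rnu3a and Rnu3b1 are the U3 forms, which held most C/D reads in every pull-down but HuR 3 (45.9%), and lie at chr10:40258467-40258680 (plus strand) and chr11:87443237-87443452 (plus strand). Snord118 (U8) lies at chr11:69073427-69073561 (plus strand). Snord14c and Snord14e are U14 copies of 1 host, Hspa8, at chr9:40803583-40803668 (plus strand) and chr9:40804748-40804837 (plus strand). Snord104, at chr11:106500993-106501062 (plus strand), and Snord83b, within Rpl3 at chr15:80078498-80078591 (minus strand), are short members with high levels per length. Snord89, within Gm15832 at chr1:39548745-39548854 (minus strand), had the smallest difference between the pull-downs. Snord82, within the nucleolin gene Ncl at chr1:86356261-86356330 (minus strand), and Snord92, within Wdr43 at chr17:71631281-71631365 (plus strand), had the largest.
Rnu3a: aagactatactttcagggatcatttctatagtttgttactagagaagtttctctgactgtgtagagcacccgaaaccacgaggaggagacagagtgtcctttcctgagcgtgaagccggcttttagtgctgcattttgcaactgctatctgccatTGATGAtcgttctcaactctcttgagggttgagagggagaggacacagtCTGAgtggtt
Rnu3b1: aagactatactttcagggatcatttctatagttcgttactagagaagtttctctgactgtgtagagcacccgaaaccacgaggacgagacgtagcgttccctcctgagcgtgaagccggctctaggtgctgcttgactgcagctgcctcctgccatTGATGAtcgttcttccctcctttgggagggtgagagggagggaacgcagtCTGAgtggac
Snord118: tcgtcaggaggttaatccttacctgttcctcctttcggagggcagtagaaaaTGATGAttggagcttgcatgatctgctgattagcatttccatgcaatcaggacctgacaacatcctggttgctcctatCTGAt
Snord14c: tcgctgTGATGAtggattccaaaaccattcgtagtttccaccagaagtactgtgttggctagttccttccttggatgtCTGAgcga
Snord14e: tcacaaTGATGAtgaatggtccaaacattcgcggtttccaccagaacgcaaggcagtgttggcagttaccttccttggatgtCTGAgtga
Snord104: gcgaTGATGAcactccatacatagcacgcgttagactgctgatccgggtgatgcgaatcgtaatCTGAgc
Snord83b: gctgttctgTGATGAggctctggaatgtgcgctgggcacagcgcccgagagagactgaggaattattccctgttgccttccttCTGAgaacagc
Snord89: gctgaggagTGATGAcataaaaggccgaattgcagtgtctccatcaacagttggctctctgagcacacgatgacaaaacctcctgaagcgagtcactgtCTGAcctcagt
Snord82: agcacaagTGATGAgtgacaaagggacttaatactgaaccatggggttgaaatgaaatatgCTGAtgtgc
Snord92: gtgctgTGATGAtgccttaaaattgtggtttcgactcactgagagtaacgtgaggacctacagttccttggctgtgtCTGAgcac

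TGATGA occurred on the given strand within the first 20 bases of 65 of 99 members (65.7%) and of 0 of 39 H/ACA genes (names starting with Snora), the other large class of small nucleolar RNA, which guides pseudouridine formation. CTGA occurred within the last 20 bases of 97 of 99 members (98.0%), the exceptions being Snord53 and Snord68, and of 4 of 39 H/ACA genes (10.3%). Within the first 64 bases, the length of the shortest member, TTTTT was found in 5 members (5.05%) and ATTTA in 8 (8.08%). Among the 39 H/ACA genes they were found in 1 (2.56%) and 2 (5.13%). No rate expected from random sequence was worked out, so these counts do not show whether such runs are rare or common. A match is a run of letters, not a bound site. The gene copies Rnu3b1 to Rnu3b4 had identical sequences (100% identity), so reads cannot be assigned among them, and Rnu3a matched Rnu3b1 at 85.2% of aligned positions. Snord14c and Snord14d shared 97.7%, Snord14c and Snord14e 79.6%, and the 14 copies of Snord116 were identical.

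Library sizes behind the RPKM, recovered from the step between values, were 15.9 M reads (M, mega) in IgG 1 and 26.3 to 28.8 M in the other 5 pull-downs, of which 7.35 to 16.3 M fell in listed exons. The summed RPKM of 10 hepatocyte markers was 1049.6 to 1227 in HuR, 343 to 936 in IgG and 916 in the Input mean, and the summed markers of the other liver cell types stayed below that of hepatocytes in every library. The column of HuR 3 carries the letter F and that of HuR 2 the letter M, yet Xist was at 0.46 RPKM in HuR 3 and 10.2 in HuR 2, and Ddx3y, a Y-linked gene, at 2.04 and 0.02. Both are HuR libraries, so group comparisons do not depend on which is which. IgG 1 stood apart in C/D content, and fold changes are given with and without it. In lysates of whole liver, fewer cells of a type and less RNA per cell cannot be told apart.

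C/D box RNAs were present in all pull-downs, and every tested member had a negative fold change of HuR over IgG, although none passed the test on its own. Over the 83 members that passed the filter (0.5 RPKM or more in at least 3 of 6 libraries), the typical member stood at 61.4, 19.2 and 26.2 RPKM (medians) with the HuR antibody. With control IgG these medians were 779, 64.4 and 85.9, and in the Input mean 10.6. IgG 1 was by far the highest, and the median of HuR 1 was just under that of IgG 2. The fitted log2 fold change, HuR over IgG on log2(RPKM + 0.5), was below 0 for 83 of 83, where 21.0% of the 5510 tested genes were below 0. Its median was -2.32 and its range -4.66 to -0.23, beside a median of 0.92 over all tested genes. The members' median differed by -3.24 log2 units from the median of all tested genes. The 16 members not tested were the 14 Snord116 copies, Snord53 and Snord93.

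**Figure D1:**
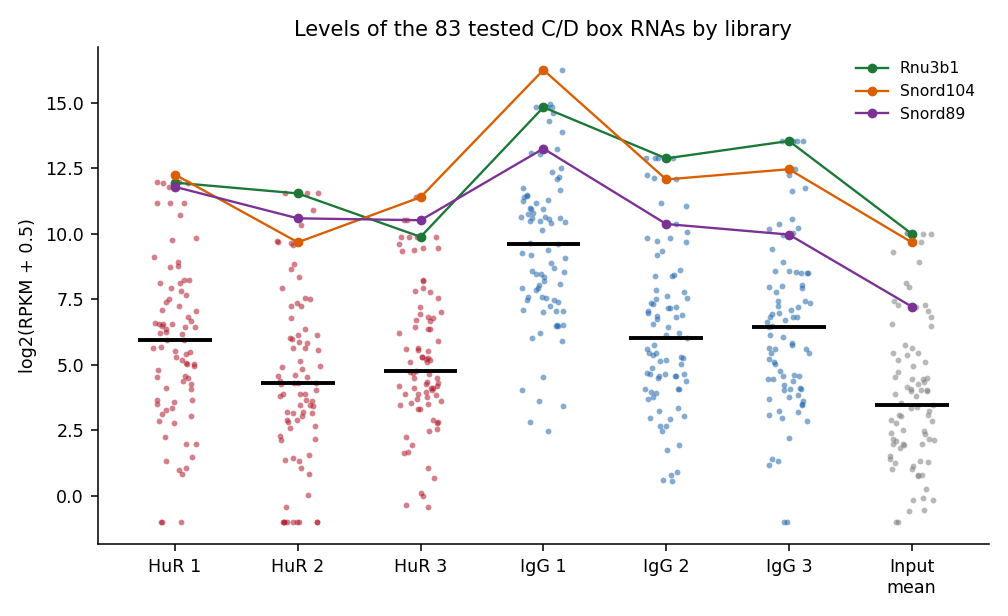
Levels of the 83 tested C/D box RNAs as log2(RPKM + 0.5) in each HuR (red) and IgG (blue) library and in the Input mean (grey). Each point is a gene, black bars are medians, lines join Rnu3b1, Snord104 and Snord89 across libraries, and IgG 1 holds the highest median (779 RPKM).

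No single member passed the threshold of 0.05. With limma and Benjamini-Hochberg adjustment over all 5510 genes, 0 members were called lower and 0 higher, where 0.127% of all tested genes were called lower and 0.672% higher. The smallest adjusted p of a member by limma was 0.0568. At an unadjusted limma p under 0.05, 40 of 83 members were lower, against 3.19% of all tested genes, and none was higher. In 41 of 83, all 3 HuR libraries lay below all 3 IgG libraries, against 3.48% of all tested genes, and in 0 of 83 was the order the reverse. The highest of the 6 libraries was IgG 1 in 82 of 83, against 18.3% of all tested genes, and Snord1a was the exception, with HuR 1 highest. In these counts and those below, the identical copies Rnu3b1 to Rnu3b4 count as separate members, although they are not independent.

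IgG 1 set much of the size of the difference. The same 41 members had all HuR libraries below both IgG 2 and IgG 3. As IgG 1 was the highest library in 82 of 83, leaving it out could hardly change this order, so the count says little about dependence on it. Without IgG 1, 68 of 83 fold changes were below 0, against 16.1% of all tested genes, and the median was -1.22 beside 1.24 over all genes. The number of members called lower changed with the scaling and the libraries used. It was 51 with TMM-like scaling factors, 17 with sample quality weights, 4 with a filter of 1 RPKM and 1 with each library centred at its median. It was 7 without IgG 3 (Snord14e, Snord69, Snord70, Snord80, Snord82, Snord87 and Snord92), 4 without HuR 3 (Snord14e, Snord70, Snord82 and Snord92), 2 without HuR 2 (Snord82 and Snord92), 1 without IgG 1 (Snord96a) and 0 without HuR 1 or IgG 2. No member was called higher under any of the 20 other settings. With sample quality weights, 84 of all 5510 genes were called lower and 2294 higher. With the filter of 1 RPKM, 21 of 3458 genes were called lower. Of all genes, 35 were called lower without IgG 3, 15 without HuR 3 and 13 without HuR 2. That number was 17 without IgG 1, 5 without HuR 1 and 0 without IgG 2. Over all genes the split was 37 higher and 7 lower as deposited, 49 and 189 with TMM-like factors, 1 and 18 with median centring, and 6 and 5 with quantile normalization. These scalings moved the median of all genes from 0.92 to 0.30, -0.18 and 0.05, and the members' median differed from it by -3.80, -3.24 and -2.08.

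**Figure D2:**
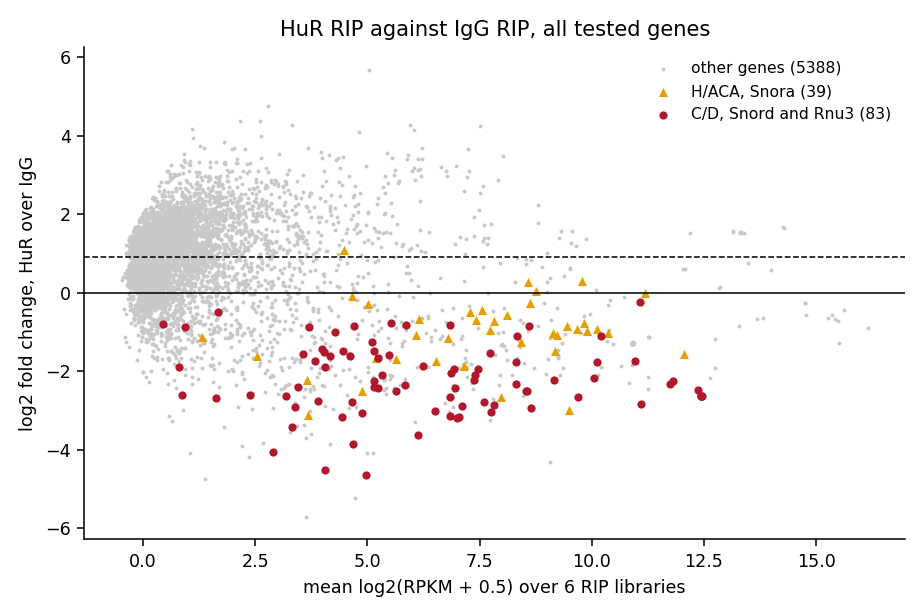
Log2 fold change of HuR over IgG against the mean log2(RPKM + 0.5) of the 6 pull-downs for the 5510 tested genes. All 83 C/D genes (red) lie below 0 as do 35 of 39 H/ACA genes (triangles), while the median of all tested genes (dashed) is 0.92.

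Against the Input mean, the IgG libraries stood high in C/D box RNA more often than in tested genes at large, and the HuR libraries did not. Of the 83 tested members, 52 exceeded the Input mean in all 3 HuR libraries, against 68.9% of all tested genes. In all 3 IgG libraries 79 did, against 20.7% of all tested genes, the exceptions being Snord14a, Snord1b, Snord8 and Snord80. Snord80 and Snord96a exceeded it in no HuR library. These are single values against a mean without error, so no test was made.

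The U3 copies, which as part of the small subunit processome pair with the ribosomal RNA precursor and are needed to release 18S rRNA, were the most read members. Rnu3a measured 2343, 1912 and 789 RPKM with the HuR antibody and 32139, 4486 and 3165 with control IgG (Input mean 479). Rnu3b1 measured 3974, 2987 and 944 RPKM with the HuR antibody and 29268, 7551 and 11982 with control IgG (Input mean 1025). All HuR libraries lay below all IgG libraries for both genes, and HuR 3 was the lowest. The fit gave Rnu3a a log2 fold change of -2.34 (SE 1.13, limma, Benjamini-Hochberg adjusted p = 0.16) and Rnu3b1 a log2 fold change of -2.63 (SE 1.08, limma, Benjamini-Hochberg adjusted p = 0.114). The identical copies Rnu3b2, Rnu3b3 and Rnu3b4 gave -2.64, -2.63 and -2.65, from reads that are divided among the copies and cannot be assigned to one of them. With the 5 copies merged into 1 gene, the members' median was -2.24. Without IgG 1 the fold changes of Rnu3a and Rnu3b1 were -1.31 and -2.09.

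U8, U13 and U22, grouped here with U3 and U14, also had negative fold changes that missed the threshold. Snord118, the U8 RNA needed for maturation of large subunit rRNA, measured 427, 187 and 224 RPKM with the HuR antibody and 4647, 589 and 677 with control IgG (Input mean 93.4). Snord13, the U13 RNA, which guides acetylation of 18S rRNA, measured 149.6, 35.1 and 110.0 RPKM with the HuR antibody and 1762, 339 and 378 with control IgG (Input mean 113). Snord22, the U22 RNA needed for 18S rRNA, lies in the non-coding gene Snhg1 and measured 559, 770.4 and 293 RPKM with the HuR antibody and 10168, 1086 and 1048 with control IgG (Input mean 154). In each of these the HuR libraries were all below the IgG libraries. The fits gave -2.23, -2.86 and -2.17 (limma, Benjamini-Hochberg adjusted p = 0.175, 0.104 and 0.189), and -1.27, -2.09 and -1.09 without IgG 1. Over the 12 genes of this group, U3 and U14 copies included, all 12 were tested and 0 were called. Their median log2 fold change was -2.63, or -2.05 without IgG 1. The identical copies Rnu3b1 to Rnu3b4 enter this median as separate genes, and so do the near copies Snord14c and Snord14d.

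U14, which acts in early cleavages of the precursor and also guides a methylation of 18S rRNA, was listed as 4 genes that differed widely in level. Snord14c measured 86.3, 19.2 and 48 RPKM with the HuR antibody and 2488, 112 and 218 with control IgG (Input mean 42.8). Its near copy Snord14d, whose reads may be shared with it, measured 82.6, 18.8 and 46.4 RPKM with the HuR antibody and 1992, 115 and 249 with control IgG. Snord14e, from the same host Hspa8, measured 1.25, 0 and 6.4 RPKM with the HuR antibody and 89.7, 8.96 and 32.2 with control IgG (Input mean 1.95). Snord14c, Snord14d and Snord14e were lower in every HuR library than in any IgG library. Their log2 fold changes were -3.18, -3.19 and -4.06 (SE 1.2, 1.17 and 1.02; limma, Benjamini-Hochberg adjusted p = 0.0989, 0.0948 and 0.0568). Leaving out IgG 1 gave -1.85, -2.01 and -3.27. The 0 of Snord14e in HuR 2 allows up to 1.27 RPKM, the level of 3 reads. Snord14a, from the ribosomal protein gene Rps13, stayed near the detection limit at 1.59, 0 and 0.568 RPKM with the HuR antibody and 6.43, 1.22 and 0 with control IgG (Input mean 0.387). Its groups overlapped, and its log2 fold change of -0.81 turned to 0.16 without IgG 1.

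Among the remaining members, most of which guide methylation, the differences with the smallest p were in members of middle and low level. Snord82, from within Ncl, measured 0, 3.8 and 18.6 RPKM with the HuR antibody and 232, 43.4 and 48.6 with control IgG (Input mean 7.88). The fit gave it a log2 fold change of -4.53 (SE 1.18, limma, Benjamini-Hochberg adjusted p = 0.0568). Snord92, from Wdr43, measured 0, 28.2 and 16.6 RPKM with the HuR antibody and 669, 64.4 and 89.8 with control IgG (Input mean 9.74), and the fit gave a log2 fold change of -4.66 (SE 1.39, limma, Benjamini-Hochberg adjusted p = 0.0721). For both genes no HuR library reached any IgG library, and the 0 in HuR 1 allows up to 1.61 RPKM for Snord82 and 1.33 RPKM for Snord92. With IgG 1 left out their fold changes were -3.75 and -3.61.

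Snord96a, from the ribosomal scaffold gene Rack1, was low in HuR and high in IgG in every library. It measured 6.65, 10.6 and 13 RPKM with the HuR antibody and 168, 53.6 and 68.9 with control IgG (Input mean 14.2). The lowest IgG library was well above the highest HuR library, and all HuR libraries were under the Input mean. The fit gave a log2 fold change of -3.07 (SE 1.0, limma, Benjamini-Hochberg adjusted p = 0.0771), and without IgG 1 the log2 fold change was -2.58 (limma, Benjamini-Hochberg adjusted p = 0.0468). Snord87, from the non-coding gene Snhg6, measured 22, 3.93 and 2.56 RPKM with the HuR antibody and 356, 38.8 and 66.2 with control IgG (Input mean 7.91), and the fit gave a log2 fold change of -3.86 (SE 1.1, limma, Benjamini-Hochberg adjusted p = 0.0624). Snord16a, from the ribosomal protein gene Rpl4, measured 49.2, 8.44 and 17.6 RPKM with the HuR antibody and 1138, 125 and 105 with control IgG (Input mean 4.98). Its HuR libraries were all below its IgG libraries, with a log2 fold change of -3.63 (SE 1.16, limma, Benjamini-Hochberg adjusted p = 0.0743). Snord69, from the nucleostemin gene Gnl3, had few reads, at 0, 0 and 1.08 RPKM with the HuR antibody and 11.8, 2.81 and 1.73 with control IgG (Input mean 0.692). Its 0 values allow up to 1.41 and 1.42 RPKM in HuR 1 and HuR 2, and the fit gave a log2 fold change of -2.62 (SE 0.79, limma, Benjamini-Hochberg adjusted p = 0.0702). For Snord87, Snord16a and Snord69 the values without IgG 1 were -2.93, -2.52 and -1.89.

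Snord88c, from 2410002F23Rik, measured 94.8, 29.5 and 19 RPKM with the HuR antibody and 1535, 158 and 162 with control IgG (Input mean 15.9), again with no overlap between the groups. Its log2 fold change was -3.16 (limma, Benjamini-Hochberg adjusted p = 0.0947), and -2.07 without IgG 1. Snord64, a small nucleolar RNA of the imprinted Snrpn region, measured 4.21, 0 and 0.277 RPKM with the HuR antibody and 16, 3.36 and 7.25 with control IgG (Input mean 0.18). The 0 in HuR 2 allows up to 1.70 RPKM. HuR 1 was above IgG 2, so its groups overlapped, and the log2 fold change was -2.69 (limma, Benjamini-Hochberg adjusted p = 0.0793), and -2.16 without IgG 1. The 14 Snord116 copies of the same region, known for their expression in brain, held 9, 0 and 9 reads with the HuR antibody and 27, 4 and 0 reads with control IgG over all copies together.

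Members other than U3 with high mean RPKM also had negative fold changes that missed the threshold. Snord104, with no host in the annotation used, measured 4912, 818 and 2704 RPKM with the HuR antibody and 78596, 4323 and 5671 with control IgG (Input mean 817). HuR 1 exceeded IgG 2, and the fit gave a log2 fold change of -2.49 (SE 1.2, limma, Benjamini-Hochberg adjusted p = 0.16). Snord55 measured 2296, 1299 and 1486 RPKM with the HuR antibody and 20379, 4885 and 4805 with control IgG (Input mean 625). Snord83b, from the ribosomal protein gene Rpl3, measured 1667, 455 and 710.0 RPKM with the HuR antibody and 24841, 2289 and 3465 with control IgG (Input mean 174). For Snord55 and Snord83b the groups did not overlap, and the log2 fold changes were -2.25 and -2.84 (limma, Benjamini-Hochberg adjusted p = 0.155 and 0.11). Snord23, from the ribosome biogenesis gene Nop53, measured 2339, 804 and 699 RPKM with the HuR antibody and 15143, 2152 and 1536 with control IgG (Input mean 278). HuR 1 lay above IgG 2 and IgG 3 there, and the log2 fold change was -1.75 (limma, Benjamini-Hochberg adjusted p = 0.278). Leaving out IgG 1 moved Snord104 to -1.16, Snord55 to -1.56, Snord83b to -1.79 and Snord23 to -0.73.

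Snord89 was the member with the smallest difference. It measured 3554, 1543 and 1467 RPKM with the HuR antibody and 9793, 1328 and 1004 with control IgG (Input mean 149). All HuR libraries were above IgG 2 and IgG 3, and only IgG 1 was above them. The fit gave a log2 fold change of -0.23 (SE 1.13, limma, Benjamini-Hochberg adjusted p = 0.885), which became 0.80 without IgG 1 and 0.74 with quantile normalization. A pair of other members, Snord17 from Snx5 and Snord15a from the ribosomal protein gene Rps3, was singled out after the values were seen. Snord17 measured 908, 857 and 671 RPKM with the HuR antibody and 4361, 926 and 1314 with control IgG (Input mean 132), and Snord15a 303, 324 and 243 RPKM with the HuR antibody and 1993, 393 and 175 with control IgG (Input mean 21.4). The groups did not overlap for Snord17 and overlapped for Snord15a. Their log2 fold changes were -1.11 and -0.84, and -0.45 and 0.14 without IgG 1. Snord15b, from the same host as Snord15a and identical to it at 64.5% of aligned positions, had 167, 180.2 and 129.7 RPKM with the HuR antibody and 3274, 832 and 259 with control IgG and a log2 fold change of -2.50 (limma, Benjamini-Hochberg adjusted p = 0.14), or -1.56 without IgG 1.

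Fold changes of members that share a host differed in size, and these differences were not tested. In the non-coding host Gas5, 3 members were tested. Snord47 measured 20.5, 8.72 and 22.2 RPKM with the HuR antibody and 409, 41.3 and 26.7 with control IgG (Input mean 6.75), with no overlap. Snord78 measured 7.65, 0.247 and 2.63 RPKM with the HuR antibody and 10.2, 1.38 and 2.1 with control IgG (Input mean 0.173), and HuR 1 was above IgG 2 and IgG 3. Its values rest on few reads, 13.4, 0.43 and 4.67 with the HuR antibody and 10.7, 2.43 and 4 with control IgG. Snord80 measured 3.41, 0 and 4.24 RPKM with the HuR antibody and 133, 5.86 and 2.0 with control IgG (Input mean 5.2), and HuR 1 and HuR 3 were above IgG 3. The log2 fold changes of Snord47, Snord78 and Snord80 were -2.24, -0.49 and -2.61. In the absence of IgG 1 they were -1.04, 0.27 and -0.92, and that of Snord78 was 0.43 without HuR 2. For the 4 members within Rpl13a, known to respond to lipid stress, Snord32a measured 181, 152 and 111 RPKM with the HuR antibody and 5901, 645 and 359 with control IgG (Input mean 155), and its groups did not overlap. Snord33, Snord34 and Snord35a ranged from 1.59 to 36 RPKM in HuR and from 7.09 to 616 RPKM in IgG, with overlap in each. The log2 fold changes of Snord32a, Snord33, Snord34 and Snord35a were -2.93, -2.43, -3.16 and -0.86, and without IgG 1 they were -1.73, -1.02, -1.73 and 0.81. No member of either cluster was called by limma after Benjamini-Hochberg adjustment.

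The guides of U6 methylation Snord7, Snord8 and Snord67 were tested, with log2 fold changes of -1.95, -0.83 and -1.54 and 0 calls. Snord8 measured 274, 57.7 and 38.8 RPKM with the HuR antibody and 2444, 106 and 12.9 with control IgG, where HuR 1 was above IgG 2 and all HuR libraries were above IgG 3. Without IgG 1 the fold changes of Snord7, Snord8 and Snord67 were -0.58, 1.18 and -0.48. The order of levels among members was alike in all libraries, with Spearman's rho between any pair of columns from 0.866 to 0.951 over 83 members, which share libraries and length scaling. Across the 83, the fold change had a Spearman's rho of -0.04 with length, -0.14 with GC content, 0.04 with T content and -0.23 with the Input level, given as descriptions.

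Summed over members, C/D reads made up 1.43, 1.44 and 0.353% of the reads in listed exons with the HuR antibody, 10.1, 2.25 and 3.0% with control IgG, and 0.295% for Input. Every HuR library was below every IgG library, and all 6 were above the Input mean. The means were 1.08% ± 0.625 (SD, n = 3) and 5.13% ± 4.35 (SD, n = 3), with a two-sided exact permutation p of 0.1, the smallest that 3 libraries against 3 can give. Without IgG 1 the difference of the means was -1.55 percentage points in place of -4.05. Outside CT010467.1, Gm42418 and AY036118, 3 genes of the ribosomal repeat that held much of the listed reads, the shares were 2.71, 2.52 and 0.518% against 14.7, 6.13 and 8.52%, with 1.11% in the Input mean and the same exact permutation p of 0.1. HuR 3 then fell below the Input mean. The summed C/D reads numbered 57511 in HuR 3 and 866818 in IgG 1, the lowest and highest of the 6, so counting error was small beside the spread between libraries for the sum. For single members it was not always, since 10 tested members had under 20 reads in every HuR library.

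The H/ACA class had a smaller median difference. All 39 Snora genes were tested, their median log2 fold change was -0.98 (range -3.13 to 1.08), 35 of 39 were below 0 and 0 were called by limma after Benjamini-Hochberg adjustment. Without IgG 1 their median was 0.16. Their medians were 268, 191 and 88.1 RPKM with the HuR antibody, 1241, 214 and 90.4 with control IgG, and 10.7 for Input. The ratio of C/D to H/ACA reads compares both classes within a library and does not depend on how libraries are scaled. It was 1.88, 1.74 and 1.81 with the HuR antibody, 3.09, 4.11 and 8.06 with control IgG, and 8.78 for Input. HuR libraries were close to each other and all below the IgG libraries, and IgG 3 was nearest to Input. On the log2 scale the means were 0.85 ± 0.06 (SD, n = 3) and 2.23 ± 0.71 (SD, n = 3), a difference of -1.37 with a two-sided exact permutation p of 0.1, again the smallest possible. Without IgG 1 the difference was -1.67, and without IgG 3 it was -0.98. Without the U3 copies the log2 ratios were -0.56, -1.15 and -0.03 against 0.34, 0.03 and 0.65, with 1.2 for Input (exact permutation p = 0.1).

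**Figure D3:**
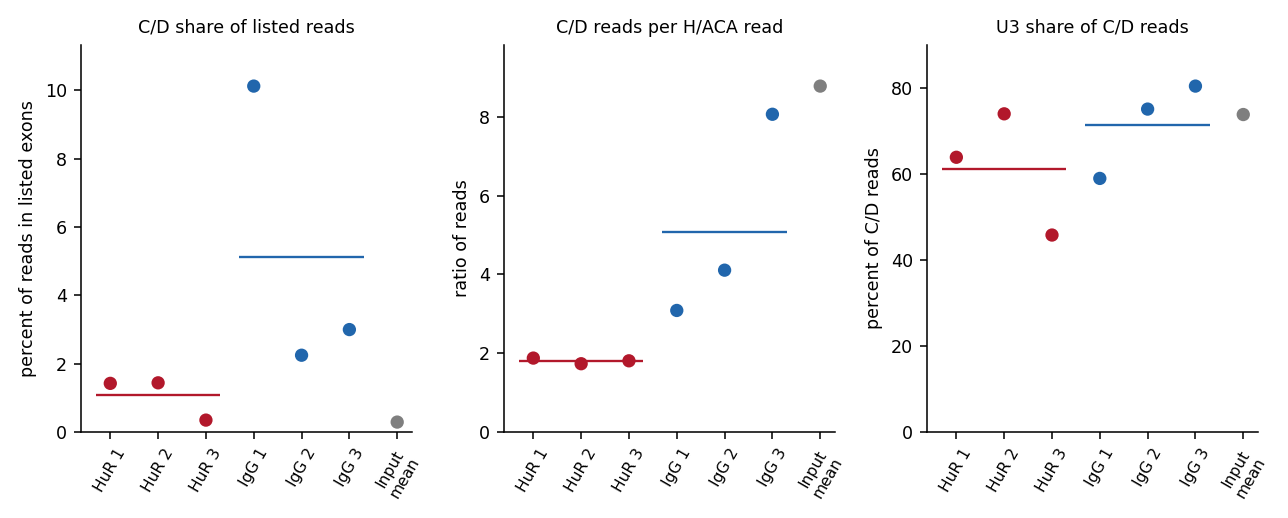
C/D share of listed reads (percent), C/D reads per H/ACA read (ratio) and U3 share of C/D reads (percent) in each HuR (red) and IgG (blue) library and the Input mean (grey), with horizontal lines at the arithmetic mean of each group of 3. HuR libraries lie below all IgG libraries in the first and second panel and overlap them in the third.

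Within the C/D reads, U3 took 64, 74.1 and 45.9% with the HuR antibody, 59, 75.2 and 80.5% with control IgG, and 73.9% for Input. The groups overlapped (means 61.3% ± 14.3 and 71.6% ± 11.2, SD, n = 3 each, two-sided exact permutation p = 0.4). Snord89 took 6.34, 4.21 and 7.55% of C/D reads with the HuR antibody and 1.97, 1.46 and 0.804% with control IgG (Input mean 1.21%). Snord17 took 3.5, 5.06 and 7.47% of C/D reads with the HuR antibody and 1.9, 2.21 and 2.28% with control IgG (Input mean 2.33%). Both shares were higher in every HuR library than in any IgG library or the Input mean. They restate the levels given above and are no separate support. Snord89 had the smallest difference of the tested members, and Snord17 was chosen after its values were seen. Snord15a, chosen like Snord17 after its values were seen, took 0.727, 1.19 and 1.68% of C/D reads with the HuR antibody and 0.54, 0.582 and 0.188% with control IgG (Input mean 0.236%), with the same order. The share of Snord104 did not separate the groups, with 5.57, 1.42 and 8.86% of C/D reads with the HuR antibody and 10.1, 3.03 and 2.89% with control IgG (Input mean 4.25%).

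**Figure D4:**
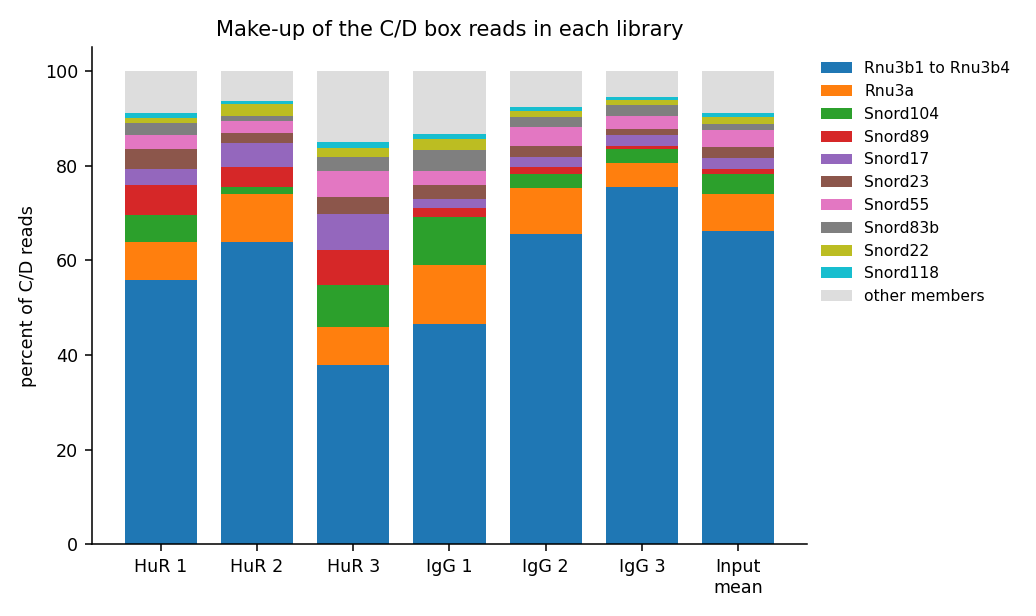
Percent of all C/D reads held by the 4 identical U3 genes, Rnu3a, 8 other members and the remaining 86 members in each library and the Input mean. The Rnu3b copies form the largest block in every column, and the Snord89 block is larger in the HuR libraries (4.21 to 7.55%) than in the others (at most 1.97%).

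Exons of host genes mostly had positive differences, as did most tested genes, while the small nucleolar RNAs within them had negative ones. Of 53 hosts considered, 23 had a tested member and exon lines that overlap no listed small RNA and passed the filter. The median difference in mean log2(RPKM + 0.5), HuR minus IgG, was 0.83 for these exons and -2.25 for the C/D RNAs of the same hosts. It was above that of its C/D RNAs in 22 of 23 hosts, and above 0 in 17 of 23, where 79.0% of all tested genes were above 0 with a median of 0.92. Without IgG 1 the medians were 1.0 and -1.27, with the exons higher in 22 of 23. In 15 of the 23, host exons were over the Input mean in every HuR library, where 68.9% of all tested genes were, and in 5 they were so in every IgG library, where 20.7% of all tested genes were, so both counts were near the background. Gm15832, the non-coding host of Snord89, had 10.4, 7.48 and 7.69 RPKM with the HuR antibody and 1.34, 0.254 and 0.0112 with control IgG (Input mean 0.379). Every HuR library was far above every IgG library there. The exons of Ncl, which encodes the nucleolar protein nucleolin, had 0.691, 1.95 and 0.788 RPKM with the HuR antibody and 0.557, 0.158 and 0.136 with control IgG (Input mean 0.208). Those of Hspa8, which encodes a constitutive chaperone, had 3.19, 5.22 and 0.509 RPKM with the HuR antibody and 1.54, 0.488 and 0.898 with control IgG (Input mean 1.3), where HuR 3 was under IgG 1 and IgG 3. The exception among the 23 was 1110038B12Rik, host of Snord52, whose listed exons had 3.7, 1.62 and 3.63 RPKM with the HuR antibody and 213, 10.1 and 20.4 with control IgG (Input mean 1.67).

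**Figure D5:**
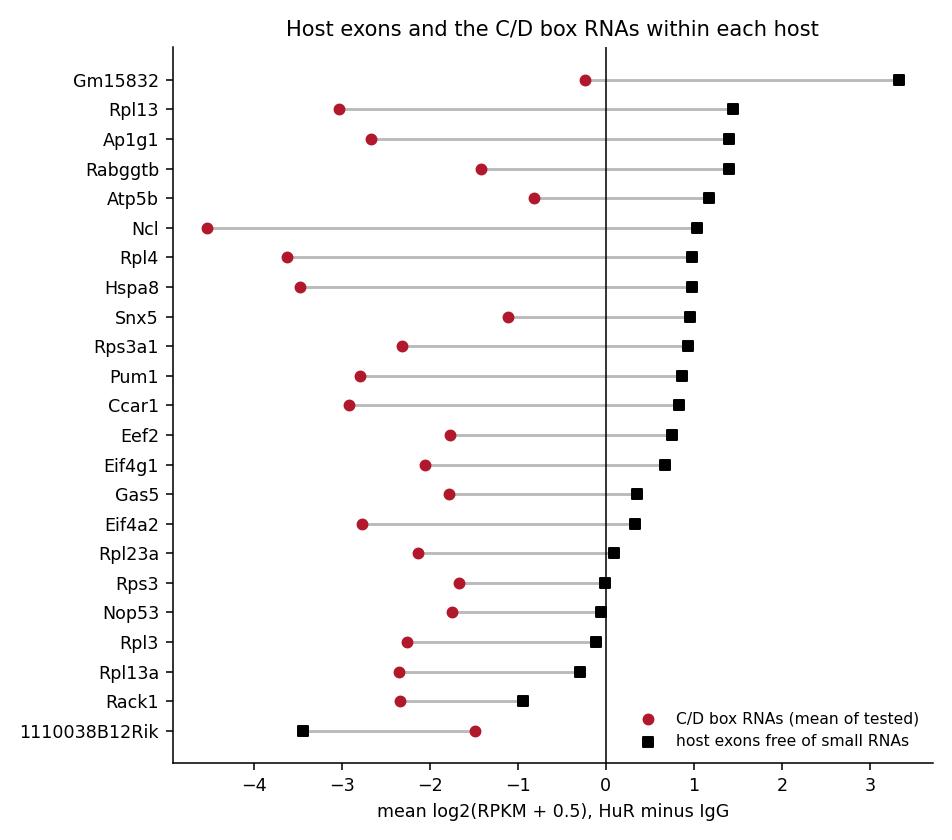
Difference in mean log2(RPKM + 0.5), HuR minus IgG, for host exons free of listed small RNAs (squares) and for the mean of the tested C/D RNAs within each of 23 hosts (circles). The square lies to the right of the circle in 22 hosts, 1110038B12Rik being the exception.

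Messenger RNAs of the proteins that work with C/D box RNAs were mostly too low to test. Of 4 core proteins only Nop56 passed the filter, with 5.83, 5.12 and 1.61 RPKM with the HuR antibody and 40.7, 4.65 and 2.78 with control IgG (Input mean 0.478), and its log2 fold change of -1.07 (limma, Benjamini-Hochberg adjusted p = 0.414) became 0.04 without IgG 1. Small nucleolar RNAs lie within exon lines of that gene. Its exons free of them had 0.0585, 1.28 and 0.049 RPKM with the HuR antibody and 0.229, 0.0674 and 0 with control IgG, which was too low for the filter and gave a difference of 0.47 in mean log2(RPKM + 0.5), the opposite direction. Of 21 assembly and cap factors, Tgs1, Ssb and Lsm6 were tested, and the log2 fold changes ran from 0.38 to 1.61. Lsm6, a subunit of the ring that binds U6 and related RNAs, had 0.779, 1.98 and 1.26 RPKM with the HuR antibody and 0.29, 0 and 0 with control IgG (Input mean 0.043). Its groups did not overlap, and the Benjamini-Hochberg adjusted p from limma was 0.0816, or 0.0493 without IgG 1. Of 30 proteins of the U3 processome, Nop14, Rcl1 and Pdcd11 were tested. Rcl1, which acts with U3 in early cleavage, had 4.83, 6.65 and 10.3 RPKM with the HuR antibody and 1.9, 1.18 and 0.105 with control IgG (Input mean 1.21). It was higher in every HuR library than in any IgG library, with a log2 fold change of 2.47 (limma, Benjamini-Hochberg adjusted p = 0.075, or 0.0445 without IgG 1). No gene of these lists was called over all 6 libraries. Without IgG 1, 723 of the 5510 tested genes were called higher, against 37 over all 6 libraries, so such passes were frequent.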

How the data were processed

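HuR RIP, IgG RIP and Input libraries of mouse liver were compared, 3 per group. The submitters' processing notes name Bowtie2, featureCounts and the mm10 build, with no version in the sources used here. Per the labels' protocols, libraries came from an Ion total RNA kit and each pull-down used 1 liver. The deposited values are RPKM per exon computed by the authors, with Input as a mean, and log2 fold columns by the authors of RPKM plus 1 over Input plus 1. In the deposited table the decimal mark was missing from values of at least 1. They were restored from their digits against the fold columns: of 138826 distinct lines, 138761 matched all 6 folds and 65 matched 5. The fold columns number HuR 2 and HuR 3 the other way round from the RPKM columns, whose names were followed. The deposited p-values, damaged in the same way, were not used here.

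Exon values were multiplied by length, summed per gene and divided by merged length. Recovered reads came out whole, to within 0.05, for 84.4% to 89.0% of genes. Reads are split between overlapping lines, so no count model was used. The depth of 1 read in a gene of the median length was 0.408 to 0.742 RPKM. HuR and IgG were compared with limma 3.58.1 in R 4.3.3 (trend, robust) on log2(RPKM + 0.5), which understates changes of low genes, for genes at 0.5 RPKM or more in at least 3 of 6 libraries. Tests were two-sided with Benjamini-Hochberg adjustment over all 5510 genes and a threshold of 0.05. Shares and ratios were compared by exact permutation (Python 3.11.15 with NumPy 2.4.6). The code of the fit was run on simulated data with less spread than these data and large changes put in. That run cannot show how well the fit finds changes here. Read limits for zeros are 3 reads and cover counting error only. The plan had counted on Input libraries of their own, and Input is given without a test.

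Members and gene lists were chosen with earlier results of these data known. Genes were named by rule: members past the threshold, the 10 with the smallest p in each direction, the 10 with the highest mean RPKM, U3, U8, U13, U14 and U22, members of Gas5, Snhg1 and Rpl13a, their hosts, and up to 4 protein genes per list. Outside this rule, Snord15a, Snord15b and Snord17 were chosen after their values were seen. Other members are named as exceptions to a count, as members of a list or for a sequence feature. Alternatives covered scaling, filter, pseudocount, trend, weights, a replicate block, left-out libraries and gene summary. Added after seeing the data were members without overlapping lines, merged U3 copies, exchanged numbers in the block, and the left-out pair for shares and ratios. The values of 1 host gene are not reported here.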

Additional observations from a re-analysis of the deposited data

How the results depend on the processing

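The count of members called lower, 0 with RPKM as deposited, was 1 with median centring, 51 with TMM-like scaling, 4 with a filter of 1 RPKM and 17 with sample quality weights, and ranged from 0 to 7 when 1 library was left out. Over all tested genes, the counts called lower were 7, 18, 189, 21 and 84 in the same order, and 0 to 35 with 1 library left out. The cause of these changes was not tested. The members' median log2 fold change stayed negative in all settings, from -3.50 to -1.22. Without IgG 1, 68 of 83 members stayed below 0, with sample quality weights 75, without HuR 2 81, with quantile normalization 82 and without both HuR 3 and IgG 1 69. Members whose fold changes are not printed above changed sign too, an example being Snord49a at 0.19 with sample quality weights. Among the genes whose fold changes are printed above, the following changed sign. Reversed fold changes without IgG 1 were Snord14a 0.16, Snord89 0.80, Snord78 0.27, Snord35a 0.81, Snord15a 0.14, Snord8 1.18 and Nop56 0.037. Their range over left-out libraries began at Snord14a -1.74, Snord89 -0.85, Snord78 -1.29, Snord35a -1.96, Snord15a -1.62, Snord8 -2.57 and Nop56 -1.79. Without both HuR 3 and IgG 1 they were Snord14a 0.14, Snord89 1.02, Snord78 0.16, Snord35a 0.98, Snord15a 0.26, Snord8 1.74 and Nop56 0.54. With sample quality weights the reversed ones among these genes were Snord89 0.43, Snord78 0.39 and Snord35a 0.80. With quantile normalization Snord89 was reversed at 0.74, and without HuR 2 Snord78 at 0.43. Of the other values of these genes under an alternative, 767 kept side and sign and 68 passed the threshold, and none could lose a call because none was called. The shares and ratios kept their sign in all alternatives.

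Same-numbered HuR and IgG libraries correlated at 0.14, 0.12 and 0.09 in their deviations from group means over all tested genes, each HuR library best with its own number. As the last is under 0.1, the main fit left pairing out. The column names of same-numbered libraries also share the letter M or F. A pairing is therefore possible, and these correlations cannot exclude it. With a replicate block the count of members called stayed 0 and the median was -2.32. Over all tested genes, the calls went from 37 higher and 7 lower to 0 and 0 with that block. The paired exact p was 0.25 for the C/D share and the C/D to H/ACA ratio, the smallest 3 pairs can give, and 0.75 for the U3 share. Members that overlap no other listed line had a median of -2.34. Depth limits members with few reads, and Input has no error.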
